A study of Mus musculus with 8 samples.

Results

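The genes described here are 37 mouse genes that copy DNA in S phase or admit a cell to it. They were listed by symbol, with earlier results of these data known. The arrays carried a probe for 34 of them (57 probes), and 30 could be tested among 15854 features (named genes, or probes with no gene name) in all. They were read in colon crypt epithelium of male hCYP1A humanized mice on a C57BL/6 background, fed AIN93M diet, with 1 array per mouse. The PhIP group held 5 mice given PhIP, a heterocyclic amine that forms when meat is cooked, in a single gavage of 200 mg/kg at 8 weeks of age. The PBS group held 3 mice of the same genotype, sex, diet and age given PBS. Tissue was taken after 24 hours. All 8 mice carry the humanized CYP1A genes, whose enzymes activate PhIP to a DNA-damaging form, and no mouse with the mouse enzymes was compared. The crypt layer was scraped by hand, so it is not a purified cell type.

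The scan deposited with PhIP mouse 1 stood apart from the other 7 and is called the dim array. Its photomultiplier was set to 700, and that of every other scan to 650. The scanner software found 21.38% of its mouse probes above background, against 53.77% to 57.13% elsewhere. Its median correlation with the other arrays was 0.766, while the other 7 correlated at 0.97 or above with each other. Fold changes below are therefore given with all 8 arrays and with the 7 others (4 PhIP, 3 PBS), except where a sentence names 1 of these. The authors' deposited log2 matrix and the scans also do not pair for PhIP mice 1 and 2. Its column for PhIP mouse 1 holds the scan deposited with PhIP mouse 2, its column for PhIP mouse 2 equals none of the scans used here, and the dim array has no counterpart in it. Mice are named below by the scan's own label.

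Replication is prepared in G1, when the origin recognition complex, Cdc6 and Cdt1 load the ring-shaped Mcm2 to Mcm7 helicase onto DNA. Cdc7 kinase and cyclin E with Cdk2 then fire the origins, Cdc45 and the GINS proteins complete the moving helicase, and primase, the PCNA clamp and its loader start synthesis behind it. Many of these genes are transcribed by E2F factors, which the retinoblastoma family holds back until cyclin-dependent kinases release them. After DNA damage p53 induces Cdkn1a, whose product p21 inhibits those kinases. In the colon the cells in S phase are the dividing progenitors of the lower crypt. Cdkn1a had log2 intensities, normalized between arrays, of 11.41, 10.95, 11.23, 11.12 and 11.23 in PhIP mice 1 to 5, against 9.01, 8.45 and 8.59 in PBS mice 1 to 3. Its log2 fold change (PhIP over PBS) was 2.51 (standard error, SE, 0.17, adjusted p = 0.00601, limma), and 2.43 (SE 0.15, adjusted p = 0.00317) with 7 arrays.

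Promoter sequences are shown for the helicase subunits Mcm5, Mcm6 and Mcm7 and for their loader Cdc6, because each holds a match to an E2F motif and because Mcm5 and Mcm7 recur in the results. Each line gives the 250 bases before 1 annotated transcription start, 5′ to 3′ on the gene's own strand, from RefSeq on GRCm38.p6. The annotated gene begins upstream of that start for Cdc6 (at 98907709), Mcm5 (at 75109468) and Mcm7 (at 138172111). For Cdc6 the whole stretch shown therefore lies inside the annotated gene. The promoter of another Mcm7 start (138171217-138171516) holds no match to an E2F motif. Capitals mark the motif or its reverse complement.
Cdc6, chr11:98907901-98908150, + strand: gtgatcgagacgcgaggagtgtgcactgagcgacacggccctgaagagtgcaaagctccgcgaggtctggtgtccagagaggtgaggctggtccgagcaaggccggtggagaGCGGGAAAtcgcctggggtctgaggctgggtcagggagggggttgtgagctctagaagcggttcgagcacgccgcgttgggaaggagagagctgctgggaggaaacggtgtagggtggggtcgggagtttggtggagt
Mcm5, chr8:75109259-75109508, + strand: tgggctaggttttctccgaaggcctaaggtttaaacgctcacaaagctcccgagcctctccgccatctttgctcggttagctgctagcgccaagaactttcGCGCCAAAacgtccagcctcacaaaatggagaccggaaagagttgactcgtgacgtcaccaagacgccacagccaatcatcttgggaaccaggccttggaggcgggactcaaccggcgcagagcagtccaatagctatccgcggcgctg
Mcm6, chr1:128359706-128359955, − strand: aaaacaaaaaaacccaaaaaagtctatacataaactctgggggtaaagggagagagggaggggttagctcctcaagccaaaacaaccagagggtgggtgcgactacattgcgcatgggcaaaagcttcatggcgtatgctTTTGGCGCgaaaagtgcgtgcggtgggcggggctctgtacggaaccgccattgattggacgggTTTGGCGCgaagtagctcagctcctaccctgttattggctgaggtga
Mcm7, chr5:138171884-138172133, − strand: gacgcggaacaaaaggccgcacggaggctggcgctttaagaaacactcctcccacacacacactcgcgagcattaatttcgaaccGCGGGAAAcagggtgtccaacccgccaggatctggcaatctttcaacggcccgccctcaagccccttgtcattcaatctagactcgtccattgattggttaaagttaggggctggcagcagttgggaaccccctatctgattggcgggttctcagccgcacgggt
Searched on both strands from 250 bases before to 50 bases after the start, TTTCCCGC occurred in 1.07% and TTTGGCGC in 0.514% of 32851 promoters. Of the 31 genes with a promoter in that table, 11 held either motif (35.5%), against 1.80% of all 27025 genes. TTTCCCGC was in Cdc6, Gins3, Mcm3, Mcm7 and Rfc3, and TTTGGCGC in Cdt1, Dnmt1, E2f2, Mcm3, Mcm5, Mcm6 and Pola1, so Mcm3 held both. The match began 138 bases before the start used here in Cdc6, 149 in Mcm5, 165 in Mcm7, and 110 and 47 in Mcm6. The cell cycle homology region motif TTTGAA occurred in 6 of the 31 genes (19.4%) and in 20.2% of all genes. Of the 6, Dnmt1, E2f2 and Gins3 also held an E2F motif, and Cdc45, Cdc7 and Mcm2 did not. A match describes letters only. The 9 tested genes with an E2F motif had a median log2 fold change of -0.06 with 8 arrays and 0.12 with 7, and the 18 tested genes without one had -0.06 and 0.12.

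No tested replication gene was called different between PhIP and PBS mice. Of the 30, 0 passed an adjusted p of 0.05 (limma, Benjamini-Hochberg over all features), where 0.0126% of all features did with 8 arrays and 0.0316% with 7. At an unadjusted p under 0.05 there were 0 of 30 genes with 8 arrays (background 3.08%) and 2 of 30 with 7, Mcm7 and Rfc4, both higher in PhIP mice (background 9.27% in either direction, 5.81% higher). No gene had PhIP and PBS values that did not overlap, against 5.75% of features with 8 arrays and 8.88% with 7. No gene had an adjusted p below 0.837 with 8 arrays or below 0.471 with 7.

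The sign of the small differences turned on the dim array. With 8 arrays 12 of 30 genes had a positive log2 fold change, where 51.1% of all features did, and the median was -0.06 (quartiles -0.30 and 0.12), against 0.01 over all features. With 7 arrays 20 of 30 were positive, where 55.8% of all features were, and the median was 0.13 (quartiles -0.05 and 0.19), against 0.03. Of the 30 genes, 9 were negative with the dim array and positive without it, and Mcm6 did the reverse. With 7 arrays the 95% interval of 26 genes lay within 1 log2 unit of 0 (2-fold), and with 8 arrays that of 10. The exceptions with 7 arrays were Chaf1b (-0.02 to 1.37), E2f2 (-1.15 to 0.42), Mcm5 (-1.27 to 1.17) and Uhrf1 (-1.23 to 1.39). In whole tissue scrapings, fewer cells of a type and less RNA per cell cannot be told apart.

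**Figure D1:**
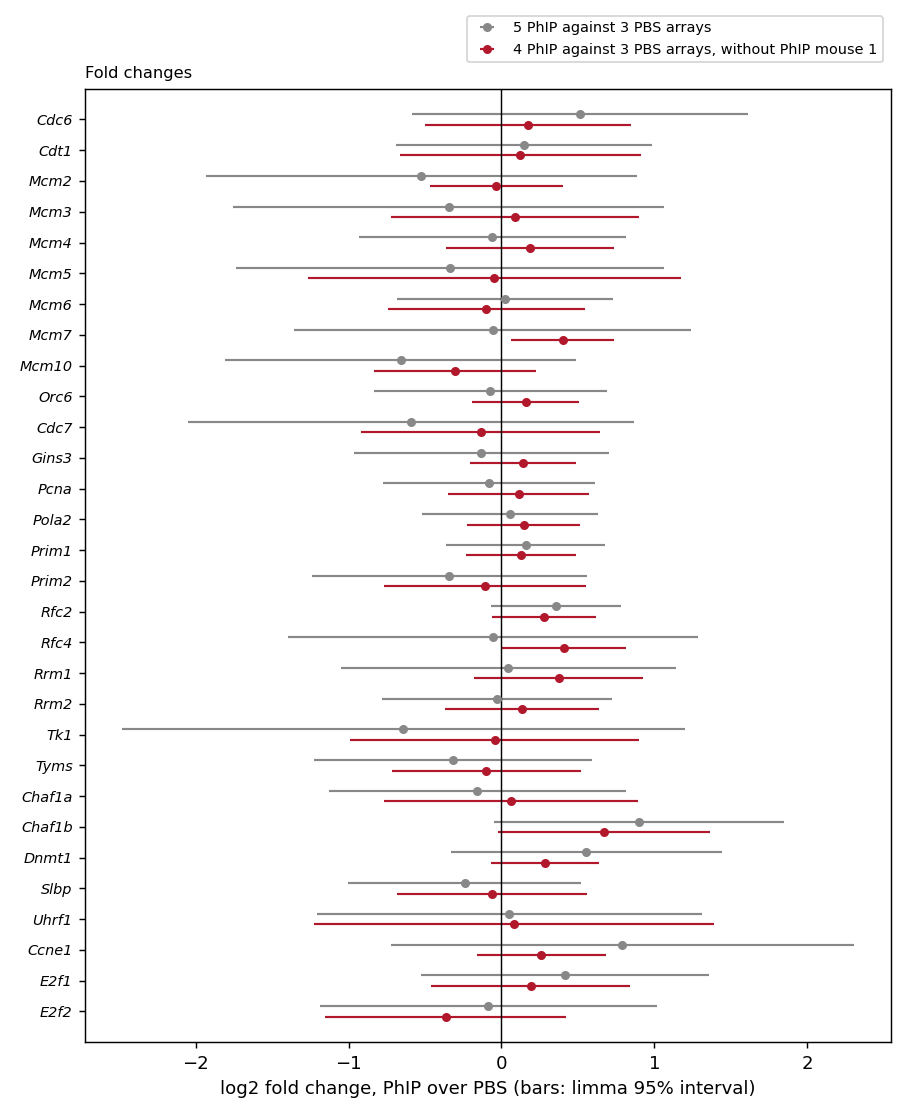
Log2 fold change, PhIP over PBS, of the 30 tested replication genes (points) with limma 95% intervals (bars), for all 8 arrays in grey and for the 7 arrays without PhIP mouse 1 in red. With 7 arrays the intervals are narrower for every gene but Uhrf1, and those of Mcm7 and Rfc4 alone leave out 0, before adjustment.

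Within parts of the series that shared a handling step the median moved. Most of these parts hold a single mouse in 1 group, so they are given as values without a test. File names mark the slides of PhIP mice 1 and 3 and PBS mice 1 and 2 as re-dipped. Within these the median log2 fold change was -0.21 with the dim array and 0.41 without it, where PhIP mouse 3 stands alone against PBS mice 1 and 2. Within the slides not re-dipped (3 PhIP, 1 PBS) it was -0.02 both with and without it, as that array is not among them. All PhIP slides and that of PBS mouse 3 share a slide number range, and against this PBS mouse alone the median was -0.23 with 8 arrays and 0.03 with 7. The remaining PBS slides form a range of their own, with no PhIP slide.

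Mouse by mouse, most replication genes lay below the PBS mean in PhIP mouse 2 and above it in PhIP mice 3, 4 and 5. On the array of PhIP mouse 2, 7 of 30 genes lay above the mean of the PBS arrays, with a median difference of -0.36 on the log2 scale. The 7 were Ccne1, Dnmt1, Gins3, Mcm7, Rfc2, Rfc4 and Rrm1. The arrays of PhIP mice 3, 4 and 5 had 28, 24 and 26 genes above that mean, with medians of 0.35, 0.19 and 0.28. PBS mice 1, 2 and 3 had 10, 13 and 21 genes above their own mean, with medians of -0.05, -0.05 and 0.14. Over all features the share above the PBS mean was 53.0% on the array of PhIP mouse 2 and 49.8% to 54.8% for PhIP mice 3 to 5, so all features together did not move with these genes.

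The genes furthest down in PhIP mouse 2 were Mcm5, Uhrf1 and Tk1, each at least 1 log2 unit below the PBS mean. This was 3 of 30 genes, where 1.60% of all features lay as low on that array, and none of the 30 did so on the arrays of PhIP mice 3 to 5. The group medians of PhIP mouse 2 were -0.41 for licensing, -0.43 for firing, -0.15 for primase, clamp and loader, -0.51 for nucleotide supply, -0.13 for chromatin and -0.26 for G1/S genes. Each of these medians was above 0 on the arrays of PhIP mice 3, 4 and 5. On the dim array 10 of 30 genes lay above the PBS mean (median -0.99), but only 6 were found above background there (Ccne1, Chaf1b, Mcm6, Pcna, Prim1 and Rfc2) and 7 were at the floor of 4.41, the lowest value the analysis assigns.

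The authors' matrix column that equals none of the scans also had 7 of 30 genes above the PBS mean, with a median of -0.30, when it was taken through the same steps. It correlated most with the scan of PhIP mouse 2 (0.986) and less with the other 6 brighter scans (0.9617 to 0.9768), and 0.7546 with the dim array. After each feature's mean over the other 6 brighter scans was subtracted from both, its correlation with that scan was 0.605. Whether the column and that scan come from the same mouse or from 2 mice cannot be told apart from these values. With this matrix in place of the scans, 0 of 30 genes passed (smallest adjusted p = 0.330) and the median log2 fold change was 0.05 (18 positive, 12 negative). With the matrix as deposited 0 of 30 passed as well (smallest adjusted p = 0.302) and the median was -0.06 (12 positive, 18 negative), so its sign turned on the processing.

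**Figure D2:**
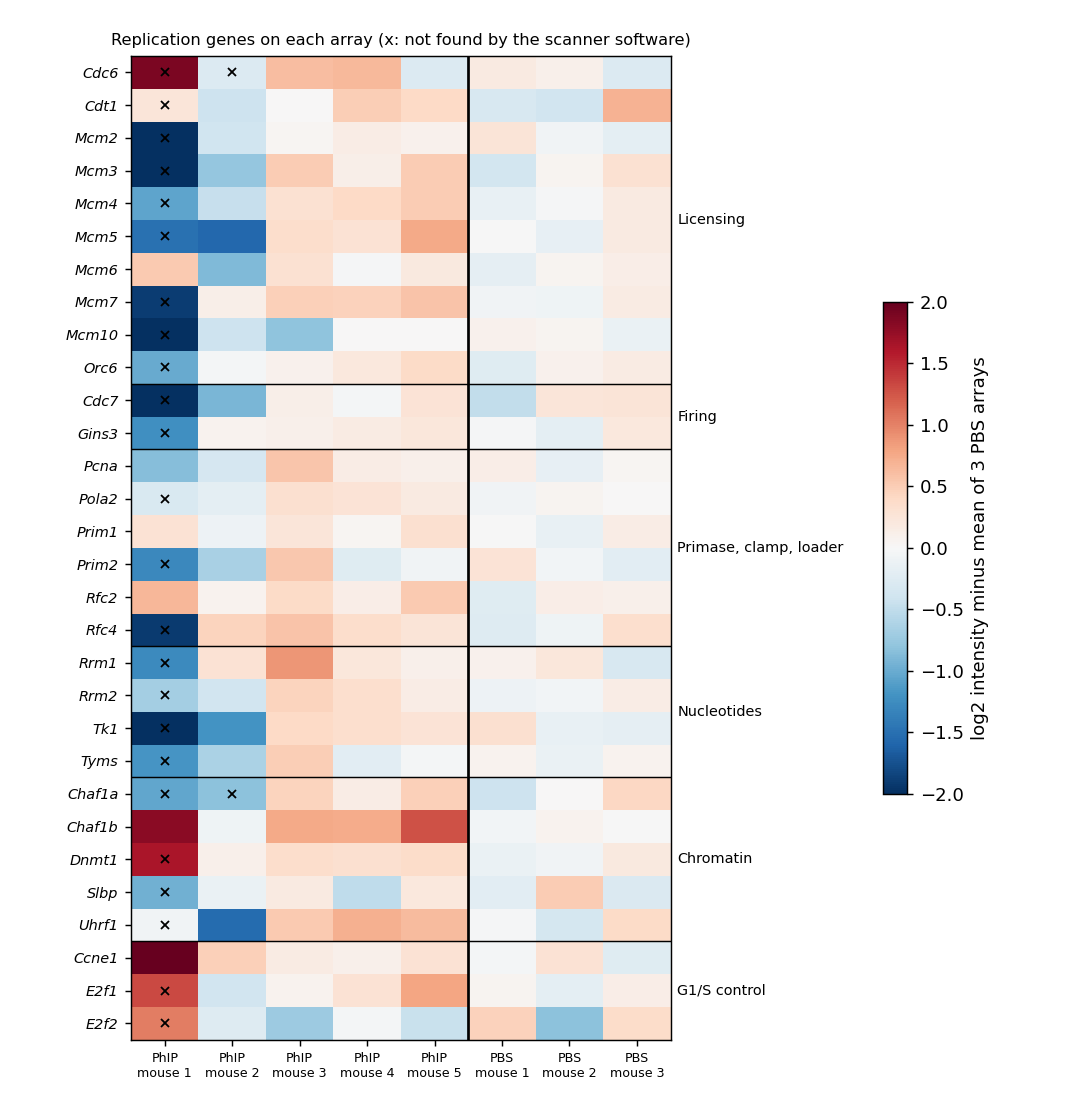
Log2 intensity of each tested replication gene on each array minus the mean of the 3 PBS arrays, on a colour scale from -2.0 (blue) to 2.0 (red), with genes grouped by role, PhIP arrays left of PBS arrays and a cross where the scanner software did not find the spot. PhIP mouse 2 is mostly blue, PhIP mice 3 to 5 are mostly red, and PhIP mouse 1 carries crosses for 24 of 30 genes.

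**Figure D3:**
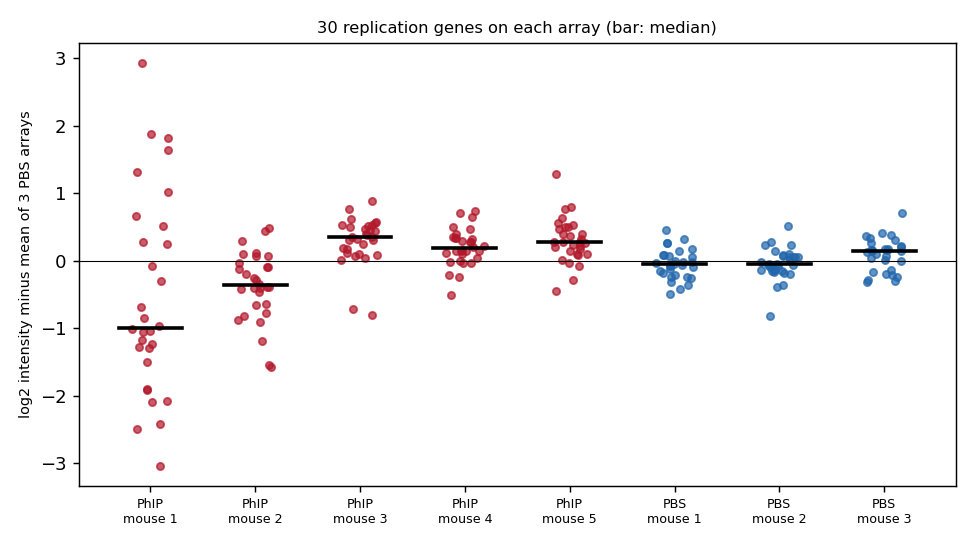
Each point is 1 of the 30 tested replication genes on 1 array, as log2 intensity minus the mean of the 3 PBS arrays, and the bar is the median. The median is -0.99 for PhIP mouse 1, -0.36 for PhIP mouse 2 and 0.19 to 0.35 for PhIP mice 3 to 5, against -0.05 to 0.14 for the PBS mice.

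None of the 10 tested licensing genes passed. A positive log2 fold change was seen in 6 with 7 arrays (55.8% of all features) and in 3 with 8 (51.1% of all features), with medians of 0.11 and -0.07. Mcm7, a subunit of the helicase ring, had log2 intensities of 6.10, 8.12, 8.48, 8.46 and 8.56 in PhIP mice 1 to 5, against 7.92, 7.91 and 8.17 in PBS mice 1 to 3. Of the 4 brighter PhIP arrays 3 lay above every PBS array, PhIP mouse 2 lay inside the PBS range, and the dim array lay far below it. The log2 fold change was 0.40 with 7 arrays (SE 0.14, unadjusted p = 0.0254, adjusted p = 0.471) and -0.06 with 8 (SE 0.56). A second Mcm7 probe gave a difference of 0.60 with 7 arrays and 1.26 with 8.

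Mcm5, another subunit of the same ring, had 6.10, 6.02, 7.95, 7.88 and 8.36 in PhIP mice, against 7.58, 7.44 and 7.77 in PBS mice. PhIP mice 3, 4 and 5 were above all PBS mice and PhIP mice 1 and 2 well below them, so the group means nearly met, at a log2 fold change of -0.05 (SE 0.52) with 7 arrays and -0.33 (SE 0.61) with 8. Mcm3 had 4.41, 5.70, 6.99, 6.59 and 6.98 in PhIP mice, against 6.12, 6.53 and 6.79 in PBS mice, again with PhIP mouse 2 lowest among the brighter arrays, and a log2 fold change of 0.09 (SE 0.35) with 7 arrays and -0.34 (SE 0.61) with 8. Mcm6 had 9.91, 8.51, 9.69, 9.37 and 9.59 in PhIP mice, against 9.21, 9.44 and 9.52 in PBS mice. Its level in PhIP mouse 2 was below every other array, but less far below than for Mcm5, and its log2 fold change was -0.10 (SE 0.28) with 7 arrays and 0.02 (SE 0.31) with 8.

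Mcm2 and Mcm4, the other ring subunits measured, also had PhIP mouse 2 as the lowest of the 7 brighter arrays, by less. Mcm4 had 7.44, 8.03, 8.79, 8.88 and 8.99 in PhIP mice, against 8.34, 8.46 and 8.66 in PBS mice, a log2 fold change of 0.19 (SE 0.23) with 7 arrays and -0.06 (SE 0.38) with 8. Mcm2 had 5.26, 7.34, 7.78, 7.90 and 7.83 in PhIP mice, against 8.01, 7.68 and 7.55 in PBS mice, and -0.03 (SE 0.19) with 7 arrays and -0.52 (SE 0.61) with 8. PBS mouse 1 had the highest Mcm2 value of all arrays, so the brighter PhIP arrays did not exceed the PBS range for this subunit.

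The loading factors gave no common pattern. Cdc6, which helps to place the ring, had 6.57, 4.41, 5.30, 5.33 and 4.41 in PhIP mice, against 4.86, 4.79 and 4.41 in PBS mice, so 3 arrays were at the floor. Its log2 fold change was 0.17 (SE 0.29) with 7 arrays and 0.51 (SE 0.48) with 8. The high Cdc6 value of PhIP mouse 1 came from a background-subtracted intensity of 11, against 7 to 53 on the other arrays, and its spot was not found there. Cdt1, which brings the ring to the origin, had 7.08, 6.42, 6.84, 7.33 and 7.23 in PhIP mice, against 6.52, 6.45 and 7.53 in PBS mice. PBS mouse 3 was above every PhIP array for Cdt1, and against this mouse alone the log2 fold change was -0.58, while it was 0.12 (SE 0.34) over the 7 arrays and 0.15 (SE 0.37) over all 8. Orc6, a member of the origin recognition complex, had 0.16 (SE 0.15) with 7 arrays and -0.07 (SE 0.33) with 8.

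Mcm10, which acts as the helicase is set in motion, was the licensing gene with the most negative difference in both fits. It had 5.26, 6.94, 6.55, 7.35 and 7.36 in PhIP mice, against 7.43, 7.41 and 7.22 in PBS mice, a log2 fold change of -0.30 (SE 0.23) with 7 arrays and -0.66 (SE 0.50, unadjusted p = 0.222) with 8. PhIP mice 4 and 5 overlapped the PBS range and PhIP mice 1, 2 and 3 lay below it, which sets Mcm10 apart from the Mcm ring genes in PhIP mouse 3. Orc1, a further origin subunit, was found on too few arrays to be tested.

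Few genes of origin firing could be measured. Cdc7, the kinase that phosphorylates the Mcm ring, had 4.41, 5.92, 6.95, 6.80 and 7.11 in PhIP mice, against 6.34, 7.07 and 7.09 in PBS mice, and a log2 fold change of -0.14 (SE 0.33) with 7 arrays and -0.59 (SE 0.63) with 8. Gins3, a subunit of the GINS part of the helicase, had 4.41, 5.70, 5.74, 5.80 and 5.87 in PhIP mice, against 5.61, 5.45 and 5.85 in PBS mice, and 0.14 (SE 0.15) with 7 arrays and -0.13 (SE 0.36) with 8. Both groups overlapped for either gene. Cdc45 was found on too few arrays, and no probe was matched to Gins1 or Gins2.

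Of the primase, clamp and clamp loader genes, 5 of 6 had a positive log2 fold change with 7 arrays and 3 of 6 with 8. Rfc4, a subunit of the loader that opens the PCNA ring, had 5.56, 7.92, 8.05, 7.83 and 7.74 in PhIP mice, against 7.22, 7.39 and 7.81 in PBS mice. The 4 brighter PhIP arrays exceeded PBS mice 1 and 2, and PhIP mouse 5 fell just under PBS mouse 3. The log2 fold change was 0.41 with 7 arrays (SE 0.17, unadjusted p = 0.0475, adjusted p = 0.534) and -0.06 with 8 (SE 0.58), and a second Rfc4 probe gave 0.63 with 7 arrays and 0.12 with 8. Against PBS mouse 3 alone, the mouse that shares its slide range with the PhIP slides, the Rfc4 difference with 7 arrays was 0.07.

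Rfc2, another loader subunit, varied little between mice. It had 10.16, 9.57, 9.88, 9.64 and 10.03 in PhIP mice, against 9.26, 9.64 and 9.60 in PBS mice, a log2 fold change of 0.28 (SE 0.15) with 7 arrays and 0.36 (SE 0.18, unadjusted p = 0.0894) with 8. PhIP mouse 2 fell inside the PBS range and PhIP mouse 4 at its top, while PhIP mice 1, 3 and 5 lay above it. The value of PhIP mouse 1 came from a background-subtracted intensity of 225 before normalization, below every other array (638 to 1095). A second Rfc2 probe gave -0.21 with 7 arrays, so the direction rests on the probe.

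Pcna, the sliding clamp and a known p53 target, had 8.85, 9.36, 10.26, 9.85 and 9.80 in PhIP mice, against 9.84, 9.53 and 9.74 in PBS mice. PhIP mouse 3 had the highest value, PhIP mice 1 and 2 the lowest, and the log2 fold change was 0.11 (SE 0.20) with 7 arrays and -0.08 (SE 0.30) with 8. The primase and polymerase alpha genes Prim1, Prim2 and Pola2, which lay the first primers, had 0.13 (SE 0.16), -0.11 (SE 0.28) and 0.15 (SE 0.16) with 7 arrays. With 8 they had 0.16 (SE 0.23), -0.34 (SE 0.39) and 0.06 (SE 0.25). Pola1 was found on too few arrays and no probe was matched to Rfc3.

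Nucleotide supply had the lowest median of the 6 groups in PhIP mouse 2, and 2 of its 4 genes had a positive log2 fold change with 7 arrays, against 1 with 8. Tk1, the S phase thymidine kinase, had 4.41, 6.25, 7.84, 7.79 and 7.71 in PhIP mice, against 7.77, 7.29 and 7.27 in PBS mice. PhIP mice 3 and 4 lay just above the top PBS value and PhIP mouse 5 just under it, PhIP mouse 2 was more than 1 log2 unit under the lowest PBS value, and the dim array was at the floor. The log2 fold change was -0.05 (SE 0.40) with 7 arrays and -0.64 (SE 0.80) with 8. Tyms, which makes the thymidylate that DNA needs, had 5.56, 6.10, 7.23, 6.53 and 6.71 in PhIP mice, against 6.81, 6.60 and 6.82 in PBS mice, with PhIP mouse 3 alone above the PBS range. Its log2 fold change was -0.10 (SE 0.26) with 7 arrays and -0.31 (SE 0.40) with 8.

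Ribonucleotide reductase, which makes deoxyribonucleotides, is built from the products of Rrm1 and Rrm2. Rrm1 had 5.56, 7.13, 7.72, 7.06 and 6.93 in PhIP mice, against 6.92, 7.06 and 6.52 in PBS mice, and a log2 fold change of 0.38 (SE 0.24) with 7 arrays and 0.04 (SE 0.48) with 8. It was 1 of the 7 genes that lay above the PBS mean in PhIP mouse 2. Rrm2, the cell cycle regulated subunit, had 6.76, 7.06, 7.89, 7.79 and 7.59 in PhIP mice, against 7.35, 7.40 and 7.59 in PBS mice, and a log2 fold change of 0.14 (SE 0.22) with 7 arrays and -0.03 (SE 0.33) with 8. Its other tested probes, all dimmer, gave -0.30, -0.31 and -0.29 with 7 arrays and -0.53, -0.02 and -0.49 with 8.

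Among the chromatin genes, Chaf1b had the most positive log2 fold change of the 30 in both fits, and it did not pass. Chaf1b, a subunit of the assembly factor that puts histones on new DNA, had 8.85, 6.95, 7.80, 7.77 and 8.32 in PhIP mice, against 6.98, 7.10 and 7.04 in PBS mice. PhIP mice 1, 3, 4 and 5 lay above all PBS mice and PhIP mouse 2 just below them. The value of PhIP mouse 1 came from a background-subtracted intensity of 64 before normalization, below every other array (124 to 327). The log2 fold change was 0.67 with 7 arrays (SE 0.30, unadjusted p = 0.0553, adjusted p = 0.545) and 0.90 with 8 (SE 0.41, unadjusted p = 0.0600), and 0.92 with 7 arrays when PhIP mouse 2 was also left out. Chaf1a, its partner subunit, had 0.06 (SE 0.36) with 7 arrays and -0.16 (SE 0.42) with 8.

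Uhrf1 and Dnmt1, which together restore DNA methylation behind the fork, differed in PhIP mouse 2. Uhrf1 had 6.76, 5.29, 7.36, 7.54 and 7.47 in PhIP mice, against 6.81, 6.48 and 7.22 in PBS mice, and a log2 fold change of 0.08 (SE 0.56) with 7 arrays and 0.05 (SE 0.55) with 8. PhIP mice 3, 4 and 5 were above every PBS mouse and PhIP mouse 2 was the lowest of all arrays. Dnmt1 had 8.56, 7.02, 7.27, 7.25 and 7.29 in PhIP mice, against 6.79, 6.85 and 7.12 in PBS mice, so PhIP mouse 2 stayed inside the PBS range. Its log2 fold change was 0.29 (SE 0.15, unadjusted p = 0.0990) with 7 arrays and 0.56 (SE 0.39) with 8. The high Dnmt1 value of PhIP mouse 1 came from a background-subtracted intensity of 48 before normalization, below every other array (121 to 203). Slbp, which binds histone messages, had -0.06 (SE 0.27) with 7 arrays and -0.24 (SE 0.33) with 8.

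**Figure D4:**
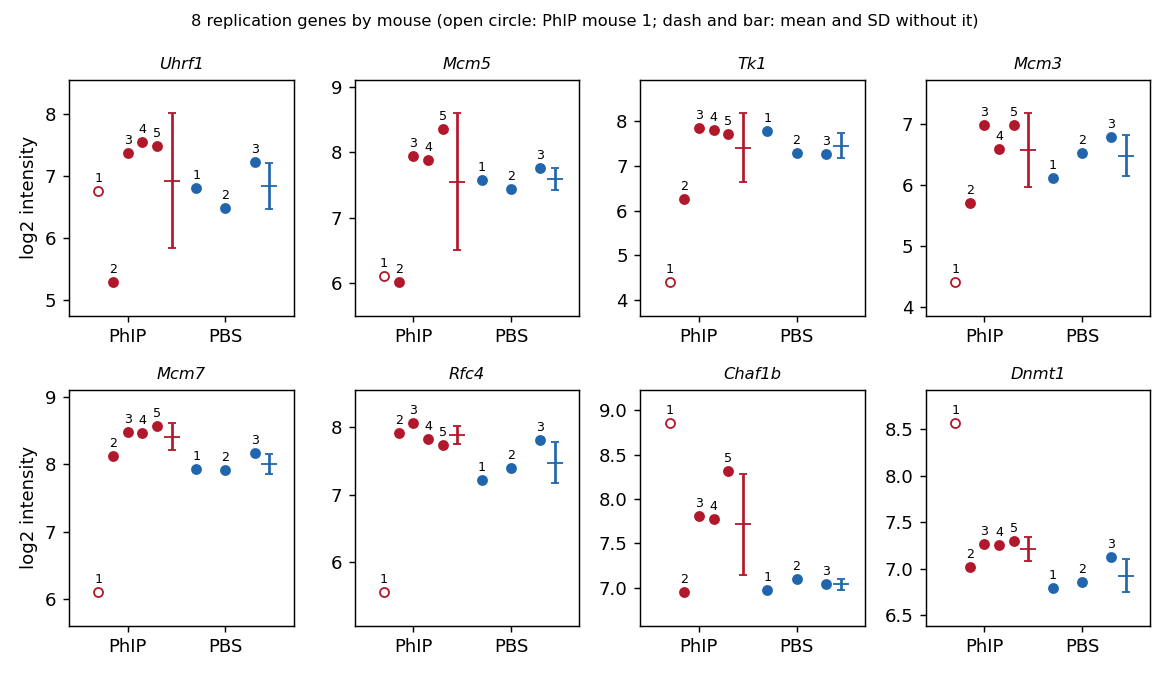
Log2 intensity (8-array scale) of 8 replication genes, chosen after their values were seen, in each PhIP mouse (red, left) and each PBS mouse (blue, right), with the mouse number beside each point, an open circle for PhIP mouse 1, and a dash and bar for the group mean and SD without it. In Uhrf1, Mcm5, Tk1 and Mcm3 PhIP mouse 2 lies below the PBS mice and PhIP mice 3 to 5 at or above most of them, while in Mcm7 and Rfc4 the 4 brighter PhIP arrays lie close together.

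The G1/S control genes gave no common direction, and none of the 3 tested passed. Ccne1, which encodes the cyclin E1 partner of Cdk2, had 8.91, 6.46, 6.16, 6.09 and 6.27 in PhIP mice, against 5.94, 6.27 and 5.75 in PBS mice, and a log2 fold change of 0.26 (SE 0.18) with 7 arrays and 0.79 (SE 0.66) with 8. The high Ccne1 value of PhIP mouse 1 came from a background-subtracted intensity of 67, against 61 to 94 on the other arrays, before normalization between arrays. E2f1, an activating E2F factor, had 7.83, 6.12, 6.58, 6.79 and 7.30 in PhIP mice, against 6.56, 6.31 and 6.65 in PBS mice, and 0.19 (SE 0.28) with 7 arrays and 0.42 (SE 0.41) with 8. E2f2, another activating E2F factor, had 8.28, 6.99, 6.54, 7.22 and 6.81 in PhIP mice, against 7.71, 6.43 and 7.62 in PBS mice, and -0.36 (SE 0.34) with 7 arrays and -0.09 (SE 0.48) with 8. The high E2f1 and E2f2 values of PhIP mouse 1 came from background-subtracted intensities of 22 and 33 before normalization. Both were below every other array (68 to 160 and 102 to 225), and neither spot was found there. Ccne2 was found on no array.

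Of the 30 genes, 9 had several tested probes. With 8 arrays the probes of E2f2 (-0.09 and 0.17), Mcm7 (-0.06 and 1.26) and Rfc4 (-0.06 and 0.12) differed in sign. So did those of Mcm6 (-0.51 to 0.02), Rfc2 (-0.29 and 0.36), Tk1 (-0.64 to 0.80) and Tyms (-0.31 and 0.09). The probes of Ccne1 and Rrm2 gave 1 sign each with 8 arrays. With 7 arrays the probes of Ccne1, E2f2, Mcm7 and Rfc4 gave differences of 1 sign each, and those of Mcm6, Rfc2, Rrm2, Tk1 and Tyms gave both signs. With 7 arrays the widest gap within those genes was in Rfc2 and Tyms, at -0.21 to 0.28 and -0.10 to 0.38. The gap in Rrm2 was -0.31 to 0.14 over 4 probes, of which only the brightest was positive.

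No gene of the wider replication machinery passed either. Of 97 further genes of the fork, nucleotide supply, G1/S control and chromatin assembly, 87 had a probe and 75 were tested. Of the 75, 0 passed in either fit. An unadjusted p under 0.05 (limma) was seen in 6 with 7 arrays (9.27% of all features) and in 1 with 8 (3.08% of all features). The median log2 fold change of the 75 genes was 0.03 with 7 arrays and -0.06 with 8. The 31 other fork genes lay above the PBS mean in 13, 27, 23 and 20 cases for PhIP mice 2 to 5. Over all features the share above it was 53.0%, 54.8%, 49.8% and 54.0% in the 8-array fit. PhIP and PBS arrays did not overlap, PhIP higher, for Pold1 and Pold3 (polymerase delta), Pole3 (polymerase epsilon), Tk2 (mitochondrial thymidine kinase), Rb1 (the E2F repressor) and Ssrp1 (a histone chaperone subunit), 6 of 75 genes where 3.67% of all features did so with 8 arrays. Ccnd3 (cyclin D3) was the only such gene with PhIP lower, where 2.08% of features were, at a log2 fold change of -0.33 (SE 0.26) with 8 arrays and -0.13 (SE 0.08) with 7.

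The 6 higher genes had log2 fold changes with 7 arrays of 0.40 (SE 0.14), 0.41 (SE 0.15), 0.39 (SE 0.15), 0.35 (SE 0.09), 0.39 (SE 0.16) and 0.25 (SE 0.08), in that order, and with 8 arrays 0.66, 0.35, 0.37, 0.53, 0.39 and 0.32. The smallest adjusted p among them was 0.337, for Tk2. The other G1/S and E2F genes leaned the other way, with 14 of 18 negative and 4 positive in both fits. Over all features 51.1% were positive with 8 arrays and 55.8% with 7. The lowest of the 18 was Ccna2. Ccna2, which encodes the S phase cyclin A2, had 4.41, 4.95, 6.35, 5.92 and 6.08 in PhIP mice, against 6.30, 6.36 and 7.15 in PBS mice, a log2 fold change of -0.78 (SE 0.37, unadjusted p = 0.0715) with 7 arrays and -1.06 (SE 0.50) with 8. PhIP mouse 3 alone reached the PBS range.

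Marker genes of the tissue were read on the same arrays. All 9 of 18 colon epithelium markers that were tested were found on the 7 brighter arrays, and their summed intensity was 46650 to 51750 on PhIP arrays and 43930 to 44310 on PBS arrays. Krt20, Vil1, Cdx1, Cdx2, Car1, Car4, Muc2, Tff3 and Phgr1 gave no tested probe. Crypt base markers (9 of 12 tested) summed to 20940 to 40660 on PhIP arrays (to 25390 without the dim array) and 21540 to 27030 on PBS arrays. Mature colonocyte markers (4 of 10) summed to 547.7 to 3825 on PhIP arrays (from 2682 without the dim array) and 2691 to 4196 on PBS arrays. Fibroblast markers (10 of 10 tested) summed to 19550 to 25070 on PhIP arrays and 26720 to 42180 on PBS arrays, with all 10 log2 fold changes negative with 7 arrays. Smooth muscle markers (8 of 8) summed to 28760 to 55320 on PhIP arrays (from 44200 without the dim array) and 51320 to 64010 on PBS arrays. All 8 of their log2 fold changes were negative in both fits. Erythroid markers (4 of 6) summed to 247.2 to 7087 on PhIP arrays (to 4794 without the dim array) and 9532 to 13810 on PBS arrays, while the sums of lymphocyte (4 of 12), macrophage (8 of 10) and squamous (7 of 8) markers overlapped between the groups. With 7 arrays log2 fold changes were negative for 7 of 7 squamous (6 with 8 arrays), 3 of 4 lymphocyte, 4 of 8 macrophage and 3 of 4 erythroid markers. Those of 2 of 9 colon epithelium, 5 of 9 crypt base and 3 of 4 mature colonocyte markers were negative. The part of other cell types in the replication gene values was not tested. In PhIP mouse 2, whose replication genes were low, the colon epithelium sum was 50930, the crypt base sum 23750 and the fibroblast sum 25070, against 46650 to 50870, 20940 to 25390 and 19550 to 22560 in PhIP mice 3 to 5. Its erythroid sum was 4794, against 247.2 to 458.1 in those mice, its mature colonocyte sum 2682, against 2871 to 3825, and its squamous sum 1558, against 2267 to 2508. No probe was matched to Mki67, so the share of cycling cells could not be read from it.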

How the data were processed

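Each of 8 scans (5 PhIP, 3 PBS) was read at 635 nm in 1 colour (Alexa-647) with GenePix Pro 4.1.1.4, per the file headers. The deposited value is spot median intensity minus local background, linear and not normalized, per the file headers. The deposited files give each spot a flag, a quality score for spots found above background, missed, empty or bad. The authors' matrix holds log2 values (column medians 4.68 to 5.13). In 7 of its columns they equal the log2 of a scan's intensities plus a constant per array, and no source used here says what the constants stand for.

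Control and empty spots (3802 of 38880) and 23 bad probes were left out. Intensities were quantile normalized, raised to a floor (percentile 5 of found values, log2 4.41, or 4.57 without PhIP mouse 1, so levels on the 2 scales are not comparable) and put on the log2 scale. Levels in the text are from 8 arrays. Probes found on at least 3 arrays were tested. RefSeq accessions named 23071 of 35078 probes (GRCm38.p6), and a gene was represented by its probe of highest mean. Tests were 2-sided in limma 3.58.1 (R 4.3.3), with lmFit and a trended eBayes. The p-values were adjusted by Benjamini-Hochberg over all 15854 features (15842 without PhIP mouse 1), at a threshold of 0.05. Errors are limma standard errors. The number of arrays limits the precision. Saturated probes numbered 1 to 13 per array.

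Every tested member was named, and from each list of further genes up to 4 with the smallest unadjusted p among those under 0.05. Ccna2 and Ccnd3 did not meet this limit in either fit and were named outside the rule, for their values. The members and lists were chosen with earlier results of these data known. The steps were tested on simulated data. Figures used Python 3.11.15 and matplotlib 3.10.9.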

Additional observations from a re-analysis of the deposited data

Results flagged for a closer look

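Within the PhIP group, 32 values (30 genes, the group's median and its number of spots found) were tested for a mouse far from the others by Dixon's ratio, once per fit. Chance flags about 1 in 20 such groups, and the genes share arrays. With 8 arrays 7 values stood out, all on PhIP mouse 1. Ccne1 at 8.91 and Dnmt1 at 8.56 were above the other PhIP mice (6.09 to 6.46 and 7.02 to 7.29). Gins3 at 4.41, Mcm2 at 5.26, Mcm7 at 6.10 and Rfc4 at 5.56 were below them (5.70 to 5.87, 7.34 to 7.90, 8.12 to 8.56 and 7.74 to 8.05). Only 6 of the 30 genes were found on that array, against 28 to 30 elsewhere in the group.

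With 7 arrays 4 values stood out, all on PhIP mouse 2. On the scale of that fit Tk1 was at 6.42 and Uhrf1 at 5.46, below the other PhIP mice (7.89 to 8.02 and 7.54 to 7.72). Dnmt1 was at 7.19, against 7.42 to 7.47. Of the 30 genes 28 were found on that array, against 30 on each of the others.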

How the results depend on the processing

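No replication gene passed under any alternative run. The smallest adjusted p in each ranged from 0.302 to 1.00 with 8 arrays and from 0.226 to 0.936 with 7. Within slide subsets that leave 1 mouse in a group, that mouse is assumed to vary like the others, so a lack of calls there says little. The median log2 fold change of the genes (-0.06 with 8 arrays, 0.13 with 7) ranged from -0.16 to 0.13 with 8 arrays and from 0.03 to 0.31 with 7 when each mouse was left out in turn. It was 0.31 without PhIP mouse 2, where 27 of 30 were positive, and with 8 arrays 0.04 without PBS mouse 3. With array weights it was 0.21 in both fits, and with scaling to the 75th percentile 0.02 with 8 arrays, where all features shifted to 0.12, with 15 genes positive and 15 negative. Single genes moved by over 1 SD of the PhIP mice in 8 comparisons with 8 arrays (719 did not) and in 38 with 7 (620 did not). That SD was taken within each fit, so with 8 arrays it includes the dim array, and the counts of the fits are not comparable. For Mcm7 the SD was 1.04 with 8 arrays and 0.20 with 7.

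Mouse numbers name different mice in each group and do not pair them (correlations of same-numbered mice -0.09, 0.19 and -0.12). With the mouse number as a replicate block the median was -0.30 with 8 arrays and -0.05 with 7, and 0 features passed in either.

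The count of all features that passed, 2 with 8 arrays, was 1 with a floor at percentile 10, without the trend or with re-dipping as a block, and 0 with percentile scaling, the mean of all probes, or within re-dipped or other slides. It was 10 within the shared slide range, 11 with array weights, 20 with the authors' matrix as deposited, 11 with it taken through the same steps (chosen after the data were seen), and 0 to 5 with a mouse left out. With 7 arrays the count of 5 was 18 and 8 with floors at percentiles 1 and 10, 16 with probes found on all arrays, 16 with normexp, 3 with re-dipping and 22 with slide range as a block, 0 within re-dipped or other slides, 19 within the shared range, and 2 to 12 with a mouse left out. The causes were not tested.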
